A study of Pinus pinaster with 21 samples.

Results

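Roots of maritime pine (Pinus pinaster) taken 24 h after irrigation with ammonium, at either of 2 doses, were compared with roots taken 24 h after irrigation with water. Of the 21 small RNA libraries of the study, 7 entered this comparison, chosen by treatment, time and completeness. They comprise 2 libraries at 3 mM NH4Cl (experiments 1 and 3), 2 at 0.1 mM NH4Cl (experiments 2 and 3) and 3 after water (experiments 1, 2 and 3). Every seedling was 1 month old, came from the Segura-Alcaraz provenance, and had spent 3 days on a nitrogen-free nutrient solution before it received 80 mL of its treatment, so the water controls share the nitrogen withdrawal. Each library is a pool of whole roots from 10 seedlings, and the experiment number marks an independent run of the whole experiment, per the labels. In pooled whole roots, fewer cells of a type and less RNA per cell cannot be told apart.

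Ammonium is taken up by root ammonium transporters and assimilated into glutamine and glutamate by glutamine synthetase and glutamate synthase, and conifers of acid forest soils commonly rely on it as a nitrogen source. Plant microRNAs are short RNAs cut from hairpin precursors by a Dicer-like enzyme. They guide an Argonaute protein to complementary messenger RNAs, which are cleaved or less translated. In Arabidopsis, miR169 acts on NF-YA transcription factors and miR393 on auxin receptors, and both families respond to nitrogen supply. The deposited table labels its small RNAs with serial identifiers such as MIR_828 that it pairs with no name, sequence or position, so no family, sequence or target is given for any of them here.

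The table holds 32711 identifiers, of which 15083 had a count in at least 1 of the 7 libraries and 673 (2.06%) had one in all 7. Those 673 are described below. A value of 0 is read as not listed, since the lowest count above 0 in the whole table is 5. The 7 libraries held 5947601 to 9603954 counts, of which the 673 identifiers carried 58.4% to 65.65%. The remaining libraries at 24 h, 3 mM replicate 2 and 0.1 mM replicate 1, were left out for incompleteness. Of the identifiers common to 10 or more of the other libraries, they had 17.98% and 17.43%, whereas the 7 used had 71.72% to 79.68%. Of the 673 they listed 122 and 133. Values are CPM, the depth-scaled count, taken over the counts of the 673 identifiers and adjusted with TMM factors (one composition factor per library) of 0.7905 to 1.145, and the lowest factor belonged to 3 mM in experiment 1. Ranks of the 673 levels correlated between libraries at Spearman rho 0.968 to 0.987.

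A few small RNAs dominated the root at 24 h in every treatment. The 10 most abundant of the 673 took 47.9% to 54.8% of the counts of the set in each library, and MIR_828 and MIR_352 together took 25.3% to 32.2%. MIR_828 stood at 205341 and 161085 CPM at 3 mM (experiments 1 and 3), 181015 and 197169 CPM at 0.1 mM (experiments 2 and 3), and 179579, 175683 and 171799 CPM after water (experiments 1, 2 and 3). Its level ranged less than the levels of most others in the top 10, and ammonium and water libraries overlapped. Its difference, ammonium minus water with experiment as a block, was 0.09 (SE 0.14, interval -0.26 to 0.44) log2 units. MIR_352 stood at 114614 and 132743 CPM at 3 mM, 110772 and 116241 CPM at 0.1 mM and 110737, 100786 and 114096 CPM after water, also with overlapping groups and a difference of 0.10 (SE 0.12, interval -0.20 to 0.41) log2 units. The share of MIR_828 in the set's counts carries no TMM scaling. That share was lowest at 3 mM in experiment 1 (16.23%), where the CPM of MIR_828 was highest and the TMM factor lowest. Between ammonium and water within experiments, the share differed by -0.224 percentage points (exact permutation p = 0.75, two-sided, 12 assignments). The smallest p this design allows is 0.0833, and over the 10 shares tested the Benjamini-Hochberg adjusted p was 1.

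The third most abundant small RNA, MIR_183, was high in a single library. It stood at 153930.0 and 31272 CPM at 3 mM, 28214 and 28771 CPM at 0.1 mM and 55967, 27272 and 27056 CPM after water. Both libraries of experiment 1 were above the other 5, and 3 mM in experiment 1 was the highest of all. The blocked difference of MIR_183 was 0.51 (SE 0.28, interval -0.20 to 1.22) log2 units, and it was 0.11 log2 units without either library of experiment 1. MIR_57, MIR_6 and MIR_86 were likewise highest in experiment 1 under both treatments. MIR_57 stood at 71733 and 39594 CPM at 3 mM, 25532 and 39089 CPM at 0.1 mM and 67713, 22113 and 31469 CPM after water, and its estimate was 0.22 (SE 0.11, interval -0.06 to 0.49) log2 units. MIR_6 stood at 52957 and 35464 CPM at 3 mM, 28841 and 32221 CPM at 0.1 mM and 62827, 28286 and 24984 CPM after water, and MIR_86 at 21369.8 and 15329 CPM at 3 mM, 9477 and 11717 CPM at 0.1 mM and 25981, 8304 and 9338 CPM after water. For both, the ammonium library of experiment 1 was below the water library of experiment 1, whereas the 3 other ammonium libraries were above the water library of their own experiment. In the shares without TMM scaling, MIR_6 in experiment 2 went the other way, with 3.18% at 0.1 mM and 3.24% after water. MIR_57 in experiment 1 did so too, with 5.67% at 3 mM and 6.22% after water.

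Of the other 4 in the top 10, MIR_62 was above the water of the same experiment in all 4 ammonium libraries, by 0.03 to 0.43 log2 units, with an estimate of 0.26 (SE 0.12, interval -0.04 to 0.57) on the TMM scale. Its shares without TMM scaling in experiment 3 were 1.46% at both doses and 1.505% after water, the reverse order. MIR_10 and MIR_30 changed sign between experiments. MIR_10 went from 34396 CPM after water to 16351 CPM at 3 mM in experiment 1, and from 12862 to 21230.0 CPM at 0.1 mM in experiment 2. MIR_30 did the reverse, from 9678 to 17264 CPM in experiment 1 and from 21355 to 15069 CPM in experiment 2. MIR_353 stood between 16615 and 24626 CPM over the 7 libraries, with an estimate of -0.09 (SE 0.12, interval -0.40 to 0.22) log2 units. None of the 10 passed the edgeR test (adjusted p 0.698 to 0.98).

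**Figure D1:**
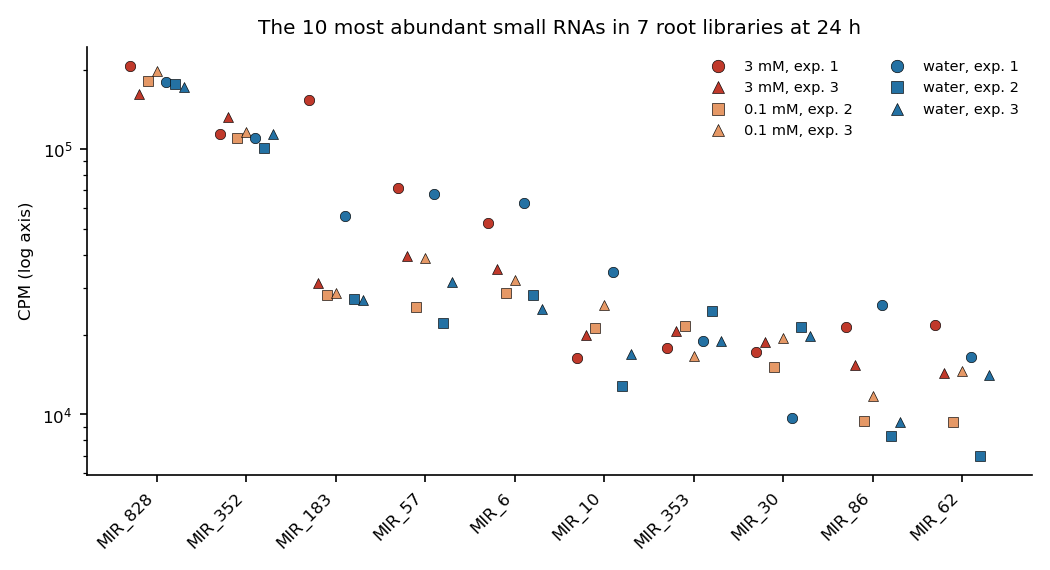
CPM of the 10 most abundant of the 673 small RNAs (log axis) in the 7 libraries at 24 h, 1 point per library, coloured by treatment and shaped by experiment. The 7 points of MIR_828 lie close together, as do those of MIR_352, and MIR_183 stands at 153930.0 CPM at 3 mM in experiment 1 against 31272 CPM or less at either dose in the other experiments.

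No small RNA passed the test for ammonium against water over the 673. The edgeR quasi-likelihood test, with the doses pooled and experiment as a block, called 0 (0%) at a Benjamini-Hochberg adjusted p under 0.05. The smallest adjusted p was 0.373. At an unadjusted p under 0.05 there were 50 (7.43%), of which 31 (4.61%) were higher and 19 (2.82%) lower after ammonium. Limma called 0 as well, and DESeq2 called 8. Estimates were small for most identifiers, with 356 above and 317 below 0 and a median absolute difference of 0.115 log2 units. The 95% interval lay within 1 log2 unit of 0 for 613 of the 673 (91.1%). A change of 1 log2 unit in either direction thus lay outside the interval of each of these 613, taken by itself, which was not so for the others. With library totals in place of TMM factors the median difference moved from 0.01 to -0.11 log2 units, and 190 identifiers (28.2%) were higher where 356 (52.9%) had been. Directions of small differences therefore depend on the scaling.

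The precision varied with abundance only in part. The median SE was 0.172 log2 units for the 123 identifiers with a mean under 50 CPM and 0.126 for the 224 from 50 to under 200 CPM. It was 0.117 for the 197 from 200 to under 1000 CPM and 0.137 for the 129 of at least 1000 CPM. The share of intervals within 1 log2 unit of 0 was 85.4%, 92%, 94.9% and 89.1% in these 4 classes. The most abundant class was thus not the most precise. All 4 within-experiment differences were above 0 for 84 identifiers (12.5%) and below 0 for 54 (8.02%). The differences of 3 mM from water in experiment 1 and of 0.1 mM from water in experiment 2, which share no library, correlated across the 673 identifiers at Pearson r = 0.0405 and Spearman rho = 0.0652, and had the same sign in 366 (54.4%). This is a description across identifiers, which share the same libraries and are not independent.

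The ranges of the 4 ammonium and the 3 water libraries did not overlap, on the TMM scale, for 13 higher and 13 lower. These are 1.93% of the 673 in each direction. The 2 most abundant on each side, besides MIR_4309 described further on, were chosen after their values were seen. Among the 13 higher, MIR_4579 stood at 2703 and 2766 CPM at 3 mM, 3009 and 3091 CPM at 0.1 mM and 2171, 2340.4 and 2252 CPM after water, with an estimate of 0.35 log2 units (SE 0.09) and an edgeR adjusted p of 0.617. MIR_841 stood at 2307 and 2475 CPM at 3 mM, 3006 and 2925 CPM at 0.1 mM and 2284, 1770.4 and 1779 CPM after water, where the lowest ammonium and the highest water library nearly touch, with 0.47 log2 units (SE 0.16). Among the 13 lower, MIR_10147 stood at 1155 and 1017 CPM at 3 mM, 897 and 685 CPM at 0.1 mM and 1508, 1247 and 1299.7 CPM after water, with an estimate of -0.51 log2 units (SE 0.16) and an edgeR adjusted p of 0.628. MIR_1092 stood at 909 and 1022 CPM at 3 mM, 792 and 936 CPM at 0.1 mM and 1134, 1206 and 1085 CPM after water, with -0.34 log2 units (SE 0.12). The differences in these abundant small RNAs were thus below 1 log2 unit and came with a gap between the groups that was small beside their level.

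**Figure D2:**
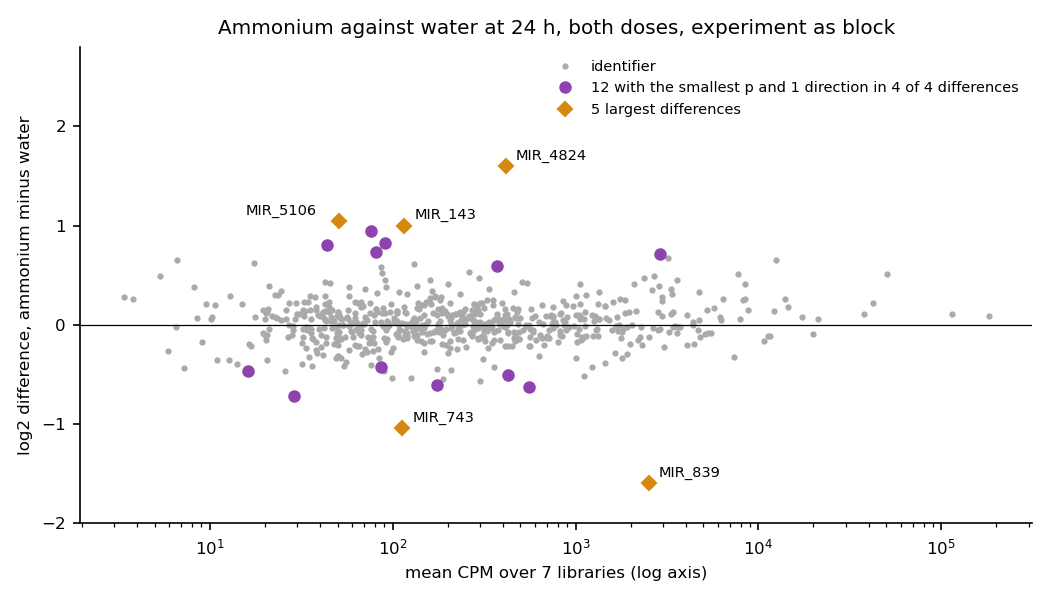
Log2 difference between ammonium and water at 24 h (both doses, experiment as block) against the mean CPM over the 7 libraries (log axis), 1 point per small RNA. Most of the 673 points lie near 0, the 5 labelled points have the largest estimates, and no point passed the test (smallest adjusted p 0.373).

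Among the small RNAs that were higher in all 4 ammonium libraries than in the water library of the same experiment, 6 had the smallest p, and none of them passed the threshold. MIR_5374 stood at 99.2 and 162 CPM at 3 mM, 73.7 and 126 CPM at 0.1 mM and 47.7, 45.5 and 84.4 CPM after water. The groups overlapped and experiment 3 was higher than experiment 2 under both treatments, while within experiments the difference lay between 0.58 and 1.05 log2 units. Its estimate was 0.83 (SE 0.14, interval 0.49 to 1.17), with an adjusted p of 0.373 in edgeR. MIR_4309, the most abundant of the 6, stood at 3829 and 3023 CPM at 3 mM, 3087 and 4021 CPM at 0.1 mM and 2569, 1724 and 2123 CPM after water. Its lowest ammonium library was above its highest water library, and the estimate was 0.71 (SE 0.13, interval 0.38 to 1.04) log2 units (edgeR adjusted p = 0.423). MIR_5152 stood at 110.3 and 102 CPM at 3 mM, 81.7 and 88.3 CPM at 0.1 mM and 57.1, 29.6 and 64.8 CPM after water, with groups that did not overlap and an estimate of 0.94 (SE 0.19, interval 0.47 to 1.42) log2 units (edgeR adjusted p = 0.423). MIR_242 stood at 55.0 and 135 CPM at 3 mM, 77.9 and 135 CPM at 0.1 mM and 39.8, 34.6 and 88.7 CPM after water and was 0.73 log2 units (SE 0.15) apart. MIR_7114 stood at 35.0 and 74.9 CPM at 3 mM, 52.6 and 55.7 CPM at 0.1 mM and 17.7, 25.9 and 45.3 CPM after water and was 0.80 log2 units (SE 0.17) apart. In both, the water library of experiment 3 reached into the range of the ammonium libraries. MIR_4752 stood at 469 and 369 CPM at 3 mM, 496 and 391 CPM at 0.1 mM and 225, 364 and 299.8 CPM after water, with the water library of experiment 2 just under the lowest ammonium library. Its estimate was 0.59 log2 units (SE 0.15), and 0.39 without either library of experiment 1.

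Another 6 small RNAs with the smallest p were lower than the water of the same experiment in all 4 ammonium libraries, again without passing the threshold. MIR_4970 stood at 91.0 and 140.0 CPM at 3 mM, 174 and 169.8 CPM at 0.1 mM and 133, 269 and 241 CPM after water. The groups overlapped and both libraries of experiment 1 were low, while the within-experiment differences were even, from -0.79 to -0.51 log2 units. The estimate was -0.61 (SE 0.10, interval -0.87 to -0.35), with an edgeR adjusted p of 0.373. MIR_7560 stood at 451 and 425 CPM at 3 mM, 520.1 and 388 CPM at 0.1 mM and 772, 659.9 and 671 CPM after water, and every ammonium library was below every water library. Its estimate was -0.63 (SE 0.11, interval -0.91 to -0.34) log2 units, with an edgeR adjusted p of 0.373. MIR_1424 stood at 84.5 and 76.3 CPM at 3 mM, 75.1 and 64.6 CPM at 0.1 mM and 107, 103 and 96.6 CPM after water, also without overlap, with an estimate of -0.42 (SE 0.10, interval -0.68 to -0.16) log2 units (edgeR adjusted p = 0.617). The remaining 3 overlapped. MIR_4829 stood at 356 and 285 CPM at 3 mM, 459.9 and 250.3 CPM at 0.1 mM and 435, 864 and 342 CPM after water, with an estimate of -0.50 log2 units (SE 0.14). MIR_7879 stood at 17.7 and 12.8 CPM at 3 mM, 9.31 and 16.0 CPM at 0.1 mM and 23.4, 13.2 and 20.2 CPM after water, with an estimate of -0.47 log2 units (SE 0.15). MIR_12850 stood at 25.3 and 17.9 CPM at 3 mM, 25.0 and 14.9 CPM at 0.1 mM and 64.3, 29.4 and 25.1 CPM after water, with an estimate of -0.72 log2 units (SE 0.22), and its gap was widest in experiment 1.

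These 12 kept their direction under RLE factors, library totals, no block and the omission of each library, in 120 of 120 refits. That they agree within experiments is part of how they were picked and is not evidence for them. The blocked estimate averages those differences, so omitting a library could hardly turn its sign. Those refits are not evidence either, and omitting either library of experiment 1, or of experiment 2, gives nearly the same estimate. DESeq2 called 7 of the 12 (MIR_4309, MIR_4970, MIR_5374, MIR_7560, MIR_5152, MIR_242 and MIR_7114) and MIR_143, with adjusted p from 0.00252 to 0.0298, where edgeR gave the same identifiers 0.373 to 0.617.

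**Figure D3:**
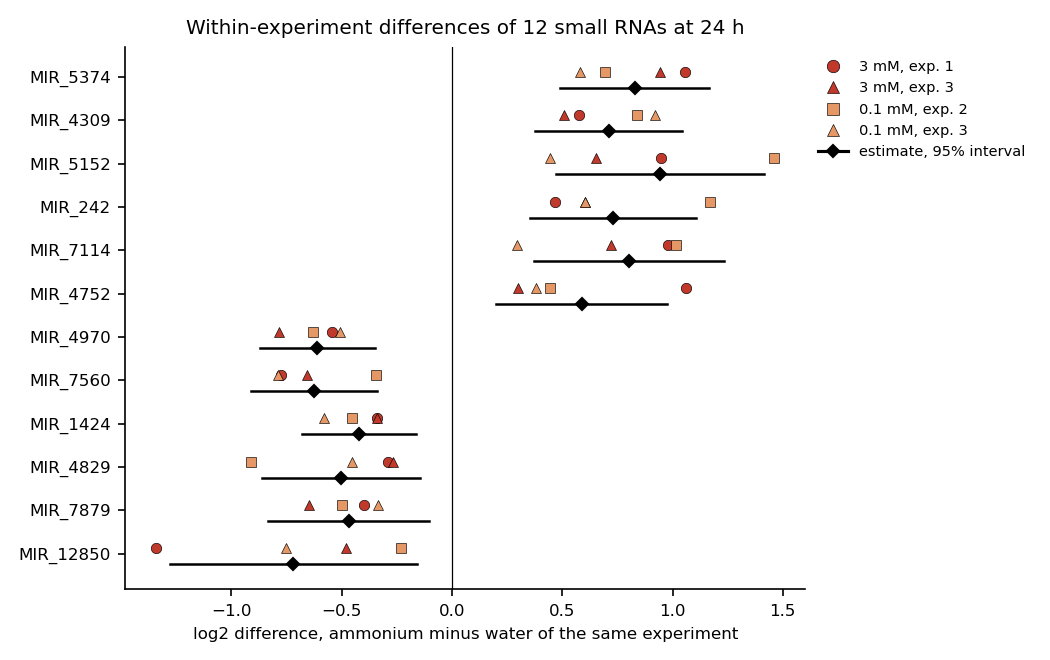
Log2 difference of each ammonium library from the water library of the same experiment for the 12 small RNAs with the smallest p among those with 1 direction in all 4 differences (coloured points), with the blocked estimate and its 95% interval (black). Both differences of experiment 3 share 1 water library, and the points lie on 1 side of 0 because the 12 were chosen that way.

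The 5 largest estimates were past 1 log2 unit, with 3 higher (0.446%) and 2 lower (0.297%) after ammonium. In 4 of them, leaving out 1 library moved the estimate by more than 1.5 times. MIR_839 had the larger of the 2 negative estimates, -1.59 (SE 1.67, interval -5.75 to 2.57) log2 units. It stood at 4379 and 1754 CPM at 3 mM, 2088 and 22.4 CPM at 0.1 mM and 3550.2, 2974 and 2817 CPM after water. The library of 0.1 mM in experiment 3 was far below the rest. Those of 3 mM in experiment 3 and 0.1 mM in experiment 2 were also below every water library. The estimate was -0.30 without 0.1 mM in experiment 3, -0.10 without the water library of experiment 3 and -2.41 without either library of experiment 1. MIR_743 stood at 9.44 and 150.4 CPM at 3 mM, 135 and 119 CPM at 0.1 mM and 110.2, 128 and 135 CPM after water, and only 3 mM in experiment 1 was low. Its estimate of -1.04 log2 units (SE 0.70) became 0.02 without either library of experiment 1. MIR_4824 was higher after ammonium in experiments 1 and 3 and not in experiment 2, at 693 and 694 CPM at 3 mM, 293 and 599 CPM at 0.1 mM and 218, 318 and 89.5 CPM after water. Its estimate was 1.60 (SE 0.53, interval 0.28 to 2.93) log2 units, and 0.77 without the water library of experiment 3, which was the lowest of the 7. MIR_5106 stood at 74.1 and 55.7 CPM at 3 mM, 62.8 and 47.0 CPM at 0.1 mM and 72.7, 31.4 and 14.1 CPM after water, with an estimate of 1.05 log2 units (SE 0.34) that became 0.51 without the same water library. MIR_143 was higher than the water of its experiment in all 4 ammonium libraries, at 78.5 and 141 CPM at 3 mM, 102 and 282 CPM at 0.1 mM and 32.6, 43.2 and 129 CPM after water, with an estimate of 1.00 (SE 0.28, interval 0.30 to 1.70) log2 units. Adjusted p in edgeR ranged from 0.617 to 0.902 over these 5.

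The doses were then separated in a fit with 3 treatments and the experiment as a block. Against water, edgeR called 0 (0%) at 3 mM, with 44 (6.54%) at an unadjusted p under 0.05, of which 26 (3.86%) were higher and 18 (2.67%) lower. It called 0 (0%) at 0.1 mM, with 30 (4.46%) unadjusted, of which 17 (2.53%) were higher and 13 (1.93%) lower. The smallest adjusted p was 0.516 and 0.612. DESeq2 called 2 and 4. The median absolute difference from water was 0.151 log2 units at 3 mM and 0.133 at 0.1 mM, and 568 (84.4%) and 576 (85.6%) intervals lay within 1 log2 unit of 0. Both comparisons use the same 3 water libraries. Between 3 mM and 0.1 mM, edgeR called 0 (0%), with 34 (5.05%) at an unadjusted p under 0.05, 13 (1.93%) higher and 21 (3.12%) lower at 3 mM, and a smallest adjusted p of 0.725. DESeq2 called 3. Only experiment 3 holds both doses, so the rest of this comparison runs through the water libraries. Intervals within 1 log2 unit of 0 numbered 530 (78.8%), fewer than for either dose against water.

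MIR_65 had the smallest p between doses. It stood at 8833 and 5847 CPM at 3 mM, 3947 and 2422 CPM at 0.1 mM and 6555, 5283 and 4342 CPM after water, above the water of the same experiment in both 3 mM libraries and below it in both 0.1 mM libraries. The estimate for 3 mM minus 0.1 mM was 1.13 (log2; SE 0.18, interval 0.64 to 1.62), and 1.27 within experiment 3. MIR_4748 stood at 1519.7 and 1413 CPM at 3 mM, 1867 and 2222 CPM at 0.1 mM and 2300.4, 1771 and 2229 CPM after water. It was below water at 3 mM in both experiments and within 0.08 log2 units of it at 0.1 mM in both, with a dose difference of -0.66 log2 units (SE 0.14). MIR_320 and MIR_565 were rare at 24 h. MIR_320 stood at 9.90 and 22.4 CPM at 3 mM, 5.02 and 7.34 CPM at 0.1 mM and 5.75, 13.7 and 7.97 CPM after water, and its dose difference was 1.80 log2 units (SE 0.43). At 2 h the water libraries of MIR_320 alone stood at 2.21, 1074.61 and 6.52 CPM (experiments 1, 2 and 3), so it can vary widely between like libraries. MIR_565 stood at 7.14 and 8.77 CPM at 3 mM, 6.06 and 4.14 CPM at 0.1 mM and 4.90, 8.65 and 6.33 CPM after water, and its dose difference was 1.06 log2 units (SE 0.23). All 4 had an edgeR adjusted p of 0.725.

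More small RNAs passed a test for the run of the experiment than for ammonium. In the same 7 libraries, with ammonium as a term, the edgeR test for any difference among the 3 experiments called 21 of the 673 (3.12%), and 158 (23.5%) had an unadjusted p under 0.05. Of the 21, experiment 1 stood above experiments 2 and 3 in 14 and below both in 7. In the 14, both libraries of experiment 1 were above the other 5 (66.7% of the 21), against 88 (13.1%) of all 673, and in 6 of the 7 they were below the other 5 (28.6%), against 92 (13.7%). The 21 were called for differing among experiments in these same 7 libraries, so such separation is part of how they were picked. Its excess over all 673 is not further evidence. The median absolute difference was 0.222 log2 units between experiments 1 and 2, 0.222 between 1 and 3, and 0.186 between 3 and 2. Estimates past 1 log2 unit numbered 44, 31 and 10 in these 3 comparisons and 5 for ammonium against water. Each experiment has 2 or 3 libraries, whereas ammonium has 4 and water 3. Estimates between experiments are thus less precise, and these counts are not like for like. The count of 21 depended on every library, with 0 to 10 calls when 1 was left out. It was 0 without either library of experiment 2, without 3 mM in experiment 1 or without water in experiment 3, 2 without water in experiment 1, 5 without 0.1 mM in experiment 3 and 10 without 3 mM in experiment 3. With library totals in place of TMM factors it was 118, and with DESeq2 92.

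The 4 with the smallest p show the pattern at low and at high abundance. MIR_445 stood at 45.6 and 44.1 CPM in experiment 1 (3 mM and water) and at 7.28 to 13.9 CPM in the other 5 libraries (edgeR adjusted p = 0.0131). MIR_449 stood at 56.9 and 68.4 CPM in experiment 1 and at 14.3 to 25.7 CPM elsewhere. The abundant MIR_116 stood at 14469 and 12919 CPM in experiment 1 and at 4169 to 7999 CPM elsewhere. MIR_1608 went the other way, with 91.9 and 73.3 CPM in experiment 1 and 262 to 347 CPM elsewhere. MIR_57 and MIR_62, described above, are among the 21 too. For these 4 the difference between ammonium and water was 0.06, -0.12, 0.26 and 0.13 log2 units, in the order MIR_445, MIR_449, MIR_116 and MIR_1608. What differed between the runs is not given in the sources used here, and its part in the result was not tested.

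**Figure D4:**
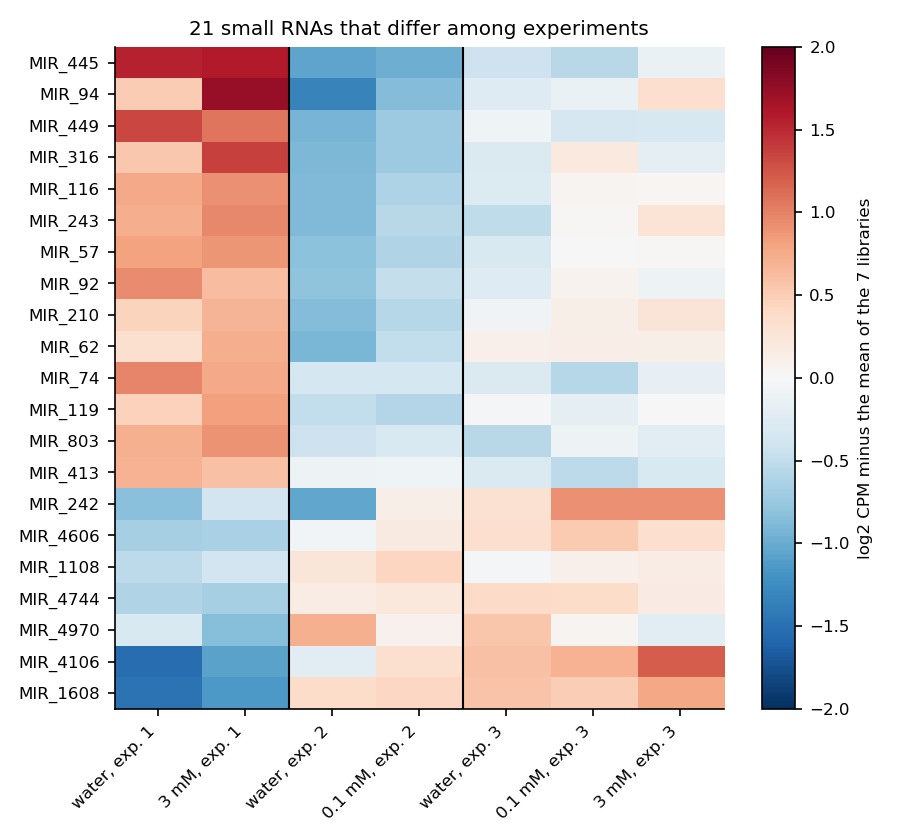
Log2 CPM of the 21 small RNAs called for differences among experiments, each minus its mean over the 7 libraries at 24 h, with libraries ordered by experiment (black lines). Both columns of experiment 1 are above the other 5 for 14 of the 21, whichever treatment the library had.

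The 9 libraries at 2 h come from the same 3 experiments and did not enter the test at 24 h. They were examined for experiment after the 24 h values were seen. All 9 listed 584 identifiers, of which edgeR called 29 (4.97%) for differences among experiments and 0 (0%) for ammonium against water, with 39 at an unadjusted p under 0.05. Of the 21 called at 24 h, 14 were listed by all 9, and in 12 of these experiment 1 differed from experiments 2 and 3 in the same directions as at 24 h. Directions were not compared for identifiers that were not called, so the 12 are not read as particular to the 21. At 2 h, 8 of the 14 passed the test again, against 4.92% of the 427 identifiers of the set that all 9 listed. MIR_74 stood at 424 to 554 CPM in the 3 libraries of experiment 1 at 2 h and at 148 to 191 CPM in the other 6 (edgeR adjusted p = 0.000816). At 24 h it stood at 420.2 and 491 CPM in experiment 1 and at 168 to 224 CPM in the others. The abundant MIR_94 stood at 18398 to 33797 CPM in experiment 1 at 2 h and at 5394 to 10075 CPM in the other 6 libraries (edgeR adjusted p = 0.00238). MIR_1608 stayed low in experiment 1, at 59.3 to 85.2 CPM against 163 to 236 CPM (edgeR adjusted p = 0.00951). MIR_74 and MIR_94 were picked with their values in view. MIR_57 and MIR_62, also among the 21, did not pass at 2 h (edgeR adjusted p = 0.0993 and 0.198). The water library of experiment 1 stood at 34649 CPM for MIR_57, where the other 6 libraries stood at 25831 to 35041 CPM. For MIR_62 it stood at 11897 CPM, where the other 6 stood at 9420 to 13587 CPM.

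The difference between ammonium and water at 24 h was also set against that at 2 h, over the 427 identifiers that all 16 libraries list. The edgeR test of this interaction called 0 (0%), with 16 (3.75%) at an unadjusted p under 0.05, 10 (2.34%) upward and 6 (1.41%) downward from 2 h to 24 h, and a smallest adjusted p of 0.527, and DESeq2 called 0, with 21 unadjusted. The interval of the interaction lay within 1 log2 unit of 0 for 362 of the 427 (84.8%). Across these identifiers the differences at the 2 times, which share no library, correlated at Pearson r = 0.115 and Spearman rho = 0.135 and had the same sign in 232 (54.3%). MIR_5533 had the smallest p. At 24 h it stood at 31.6 and 21.8 CPM at 3 mM, 20.2 and 19.4 CPM at 0.1 mM and 23.4, 14.6 and 16.5 CPM after water, and in the 16-library fit its difference was 0.41 log2 units at 24 h and -0.42 at 2 h. The change between times was 0.83 (SE 0.21). MIR_1251 was 0.37 at 24 h and -0.31 at 2 h, and MIR_1680 was -0.33 and 0.21. MIR_4853 was 0.57 and -0.07. None of these changes between times passed the test (adjusted p 0.527 to 0.926).

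**Figure D5:**
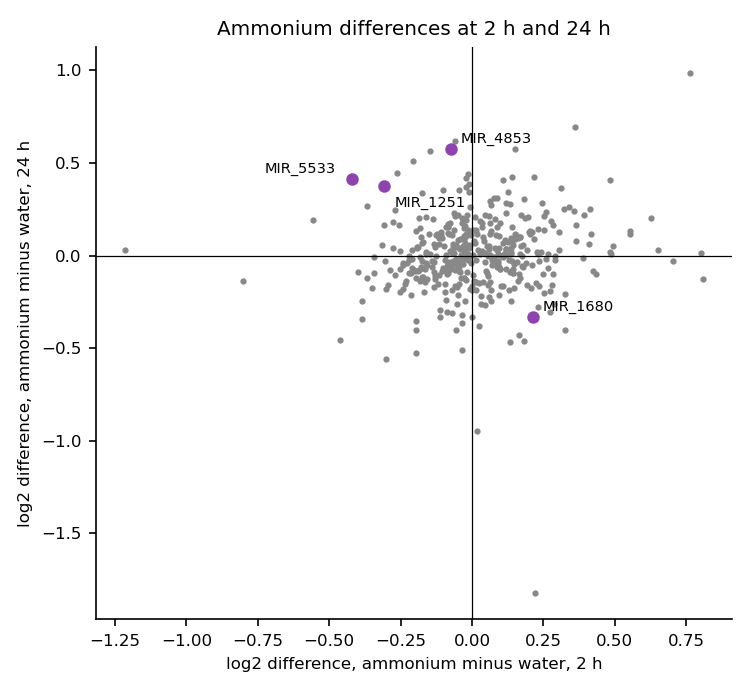
Log2 difference between ammonium and water (both doses) at 24 h against the same at 2 h for the 427 small RNAs listed by all 16 libraries, 1 point each. The labelled points have the smallest p for a change between times, and none passed the test (smallest adjusted p 0.527).

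Of the 12 small RNAs with the smallest p at 24 h, 2 were listed by all 9 libraries at 2 h. MIR_4970 was -0.04 log2 units from water at 2 h (interval -0.70 to 0.62) and MIR_4829 was -0.31 (interval -0.79 to 0.17). Both thus had the sign they had at 24 h, with intervals that include 0. The other 10 were listed by 5 to 8 of the 9 libraries at 2 h. Over the libraries that listed them, in CPM of the whole library, the ammonium and water ranges overlapped in 9 of the 10. The exception was MIR_7879, lower after ammonium at 24 h, which stood at 13.7 to 17.4 CPM in 4 ammonium libraries at 2 h and at 8.55 CPM in the 1 water library that listed it. MIR_5374, higher at 24 h, stood at 23.4 to 79.0 CPM in 4 ammonium libraries at 2 h and at 45.4 to 102.4 CPM in 2 water libraries. MIR_4309 was listed by 4 of 6 ammonium and 3 of 3 water libraries, at 1410 to 2796 CPM and 1128 to 1874 CPM of the whole library, which overlap. On that scale its ranges at 24 h were 1768 to 2566 CPM after ammonium and 1273 to 1550.0 CPM after water.

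For a small number of identifiers, listing split exactly by treatment. Listing by 4 or 3 of 7 libraries can fall in many ways besides by treatment. The counts below are therefore not read as a result of ammonium. The 4 ammonium libraries listed 11 that no water library listed, of 759 listed by exactly 4 of the 7 (1.45%). The 3 water libraries listed 21 that no ammonium library listed, of 1296 listed by exactly 3 (1.62%). Listing was described and not tested, and no fold is given against a value of 0. Among the 11, MIR_767 had 51435 and 14461 counts at 3 mM and 33226 and 17119 at 0.1 mM, and MIR_4156 had 17286, 11642, 11330 and 13259 counts in the same order. The other 9 had at most 203 counts in any library. At 2 h, 10 of the 11 were listed by at least 1 water library, MIR_767 and MIR_4156 by 1 of 3 water and 4 of 6 ammonium libraries each. Among the 21, MIR_4615 had 2355, 2483 and 3051 counts after water in experiments 1, 2 and 3, and MIR_10192 had 587, 568 and 924. At least 1 ammonium library at 2 h listed 18 of the 21. The left-out library at 0.1 mM listed none of the 11, and with all 9 libraries at 24 h the counts of 11 and 21 became 0 and 14. Both left-out libraries are incomplete, so a fall of the 11 to 0 was likely in advance. By experiment, the 2 libraries of experiment 1 listed 128 identifiers that no other library listed, and the 2 of experiment 2 listed 151. In all, 2480 identifiers were listed by exactly 2 of the 7. The 3 libraries of experiment 3 listed 43 that no other library listed, of the 1296 listed by exactly 3. Other groupings of the libraries were not counted, so these numbers are not read as particular to an experiment. MIR_4156, MIR_4615 and the others named from listing were chosen after their counts were seen.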

How the data were processed

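The authors deposited raw whole-number counts per identifier, 1 column per library and not normalised, per the file header. Per the labels' protocols, molecules of 18 to 30 bp were selected on gels and read as single ends of 50 bp. The tools bcl2fastq and edgeR are named, without versions, in the submitters' processing notes. For the aligner, the miRNA caller and any filter, nothing was given in the sources used here. Columns were matched to samples by experiment, dose and time in the sample titles. The description field of the 0.1 mM libraries of experiments 2 and 3 at 24 h differs from their column names.

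Identifiers with a count in all 7 libraries (all 16 for the interaction with time) were tested with edgeR 4.0.16 in R 4.3.3, using TMM factors, quasi-likelihood F tests, experiment as a block and Benjamini-Hochberg adjustment, two-sided. Log2 differences, SE and 95% intervals come from limma 3.58.1 on log2 CPM with a prior count of 0.5. The pooled fit has 3 residual degrees of freedom, which limits its precision. DESeq2 1.42.0 was an alternative. The pooled ammonium fit and the interaction fit were tested on simulated data, whereas the dose fit and the test among experiments were not. The simulated counts held no difference among experiments, unlike these libraries. They do not show how the fits behave where experiments differ. Identifiers were named by a rule: the 10 most abundant, the 6 higher and 6 lower with the smallest p and the same direction in all 4 within-experiment differences, the 5 largest differences, and the 4 smallest p of each further comparison. The members, the rule and the lists were chosen with earlier results of these data known. miRNA family lists and cell markers could not be matched to serial identifiers. The labels make the experiment a shared run. Deviations from the treatment means correlated at 0.336 on average between ammonium and water libraries of the same experiment (4 pairs, 0.152 to 0.522) and at -0.165 between experiments (8 pairs). Such deviations cancel out within each treatment, so the negative value largely follows from the positive one and is not a separate observation.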

Additional observations from a re-analysis of the deposited data

Results flagged for a closer look

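The CPM of the 4 ammonium libraries was examined for each of 39 named small RNAs with Dixon's gap ratio, the gap of the highest or lowest library to its nearest neighbour over the whole range. The ratio was past its 95% critical value for 4, and in these 4 the library apart was 3 mM in experiment 1. Chance flags about 1 in 20 groups, but the 39 were chosen by their values, MIR_445 and MIR_449 for differing among experiments, so that rate is no yardstick for them. MIR_839 and MIR_743, which also have 1 ammonium library far below the rest, were not past the critical value on this scale. At 3 mM in experiment 1, MIR_183 stood at 153930.0 CPM, with 31272 CPM as the next. MIR_445 stood at 45.6 CPM, with 13.9 CPM as the next, and MIR_449 at 56.9 CPM, with 21.8 CPM as the next. MIR_4853 was low there, at 189.7 CPM, with 331 CPM as the next. That library is the only ammonium library of experiment 1 among the 7. The water library of experiment 1 stood at 55967, 44.1 and 68.4 CPM for MIR_183, MIR_445 and MIR_449, above the other 2 water libraries each time, and at 143 CPM for MIR_4853, below them.

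The left-out libraries listed a few of the identifiers that were listed after one treatment alone. The left-out library of 3 mM in experiment 2 had 24589 counts of MIR_767 and 48 counts of MIR_5813, both at 0 in the 3 water libraries at 24 h. The left-out library of 0.1 mM in experiment 1 listed neither. The other 9 of the 11 were listed by neither left-out library. Having 2 of 11 is close to the 17.98% of the widely listed identifiers that the same 3 mM library had, so it is near that library's background. The left-out ammonium libraries also listed 7 of the 21 identifiers that the 3 water libraries listed and the 4 ammonium libraries did not, such as MIR_10192 with 864 counts at 3 mM and 284 at 0.1 mM. These libraries had 17.98% (3 mM) and 17.43% (0.1 mM) of the widely listed identifiers. Some of the 21 would thus be listed by either library in any case, and the 7 are not read as a result.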

How the results depend on the processing

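The count of 0 for ammonium against water (both doses) held in edgeR with RLE factors, library totals, a mean of at least 20 CPM, no block, each library or experiment left out and all 9 libraries at 24 h (23 identifiers), in limma, and in limma with unlisted values as missing (1723 identifiers). Each fit with a library or an experiment left out has fewer than the 3 residual degrees of freedom of the full fit. A count of 0 in those fits therefore adds little. For ammonium against water DESeq2 called 8, with 2 for 3 mM, 4 for 0.1 mM and 3 between doses, where edgeR called 0, and 92 among experiments. The cause was not tested. Without the replicate block, 24 identifiers had an unadjusted p under 0.05 in place of 50, and 3 mM, 0.1 mM, the doses and the interaction with time stayed at 0 calls. Library totals gave 118 calls among experiments, and leaving out a library gave 0 to 10, with fewer residual degrees of freedom. A dose left with 1 library is assumed to vary like the rest. Identifiers listed by every ammonium library and no water library were 0 with all 9 libraries and 7 at 50 counts or more, in place of 11. The 2 libraries added to make 9 are incomplete, so that 0 was likely in advance. Among the 10 most abundant, the sign of MIR_10, MIR_30, MIR_6, MIR_352, MIR_828 and MIR_86 turned in at least 1 of 10 refits. Small RNAs at 0 in any library were outside the tested set.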

Other observations

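MIR_1073 is outside the 673 because the 3 mM libraries did not list it, and it was chosen after its values were seen. At 24 h it had 4589, 4332 and 8444 counts after water, 288 and 246 counts at 0.1 mM in experiments 2 and 3, and 0 in both libraries at 3 mM and in both left-out libraries. With unlisted values as missing, its difference between ammonium (0.1 mM only) and water was -4.87 log2 units (SE 0.25, limma adjusted p = 0.172 over 1723 identifiers), lower in 2 of 2 libraries. Before irrigation it had 11285 and 14193 counts in experiments 1 and 2 and was not listed in experiment 3, whose library had 21.38% of the widely listed identifiers. At 2 h it was listed at 3525 and 3735 counts at 0.1 mM in experiments 2 and 3, 233 at 3 mM in experiment 3 and 182 after water in experiment 3, and by no other library at that time.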
